A study of Mus musculus with 6 samples.

Results

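The genes described here are 8 transcription factors of the sympathoadrenal lineage, Phox2a, Hand2, Gata2, Gata3, Isl1, Mycn, Insm1 and Tbx2, which belong to the core regulatory circuit of neuroblastoma. They were chosen by name, with earlier results of these data known, and all 8 were among the 55385 genes of the deposited table. The values come from mouse Neuro2A (N2A) cells, a neuroblastoma line, that received either an siRNA against the circular RNA circCpsf6 (si-circCpsf6, 3 libraries) or the comparison siRNA si-NC (3 libraries), each at a final concentration of 100 nM. All 6 libraries therefore come from a transfected cell line grown in serum. Nothing in the labels says that the replicates were separate cultures, so a p-value speaks only of how much these libraries vary, and that variation may be technical.

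Neuroblastoma arises from precursors of sympathetic neurons and adrenal chromaffin cells. In those precursors bone morphogenetic protein (BMP) signals switch on the homeodomain factor PHOX2A, the basic helix-loop-helix factor HAND2 and the zinc finger factors GATA2 and GATA3. These factors keep each other expressed and activate the genes of noradrenaline synthesis. ISL1, INSM1 and TBX2 act in the same lineage, and MYCN is the growth-promoting oncoprotein whose gene is amplified in aggressive human tumours.

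Levels are given as FPKM, a count of fragments scaled to transcript length and library size, so that levels of different genes can be set side by side. Between 12671 and 13080 genes reached 1 FPKM in a library. Read counts are not given, so depth and the counting error of a value are unknown. Of the neuroblast markers, Chga read 226.1, 226.2 and 248.6 FPKM with si-NC, whereas Ddc was at or below 1.05 FPKM in all libraries. The defining markers of Schwann cells (Sox10), blood cells (Ptprc), endothelium (Cdh5) and astrocytes (Aqp4) were at or near 0, with Cdh5 highest at 0.1 FPKM. Other markers of these cell types read higher: Erbb3 (Schwann) up to 3.45, Tal1 (blood) up to 9.25, Pecam1 (endothelium) up to 2.04 and Aldh1l1 (astrocytes) up to 1.67 FPKM. The host gene Cpsf6 read 14.6 ± 0.56 FPKM with si-NC and 13.4 ± 2.40 FPKM with si-circCpsf6 (mean ± SD, n = 3 each). This gene-level value does not separate circle from linear mRNA, and whether the circle adds to it is not known, so circCpsf6 itself was not analysed here.

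The comparison asks whether silencing of circCpsf6 altered these genes. With si-circCpsf6, Hand2, Phox2a, Insm1, Isl1 and Tbx2 had lower means and Mycn, Gata2 and Gata3 had higher means. None of the 8 passed the test over all genes (limma on log2(FPKM + 1), Benjamini-Hochberg adjusted p under 0.05), which called 1.69% of 12974 tested genes (those averaging 1 FPKM or more). At an unadjusted p under 0.05, Mycn was higher, as were 10.2% of tested genes, and Hand2, Phox2a and Insm1 were lower, as were 10.1%. The si-circCpsf6 values lay wholly above the si-NC values for Mycn (12.8% of tested genes did so) and wholly below them for Hand2 and Phox2a (14.0%). The median log2 fold change of the 8 was -0.28, ranging from -0.64 to 0.87, beside -0.021 for all tested genes. In the authors' deposited table none of the 8 was marked significant either, with q-values from 0.06 (Phox2a) to 0.64 (Tbx2).

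**Figure D1:**
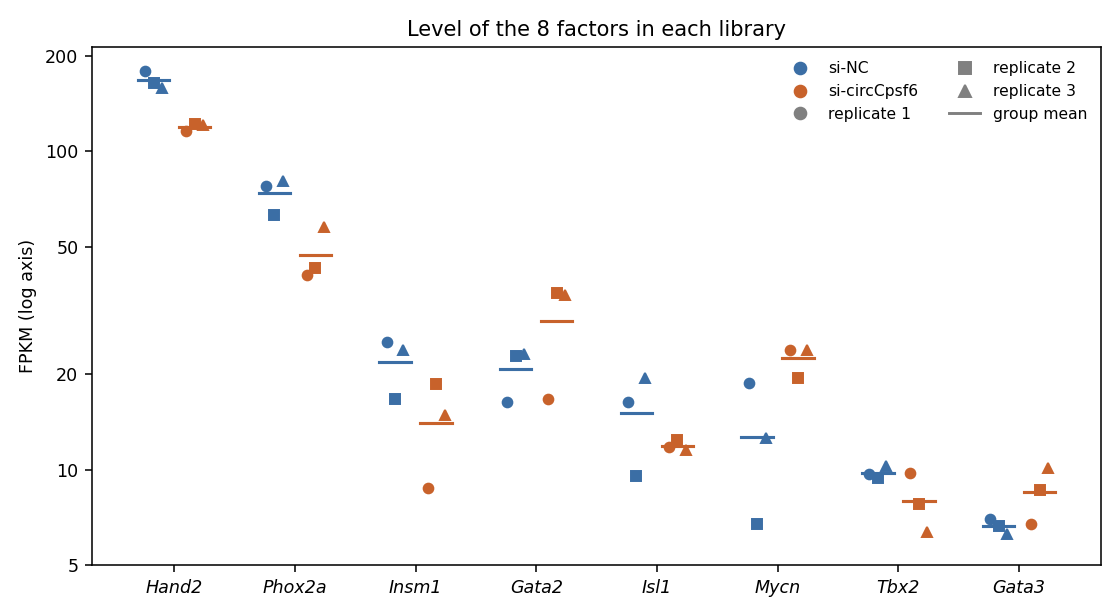
FPKM of the 8 factors on a log axis, ordered by their si-NC mean, with si-NC libraries in blue, si-circCpsf6 libraries in orange, a marker shape for each replicate and a bar for each group mean. Hand2, at 116 to 179 FPKM, lies above all other factors, and the groups part for Hand2, Phox2a and Mycn.

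The levels of the factors spanned a wide range in these cells. In si-NC the order was Hand2 (167 FPKM), Phox2a (73.9), Insm1 (21.8), Gata2 (20.7), Isl1 (15.1), Mycn (12.7), Tbx2 (9.78) and Gata3 (6.64). The libraries of Hand2 and Phox2a lay apart from each other and from the rest, and Tbx2 lay apart from Gata3. Neighbours from Insm1 down to Tbx2 overlapped and so could not be ordered. With si-circCpsf6 the order was Hand2 (119.5), Phox2a (47.2), Gata2 (29.2), Mycn (22.3), Insm1 (14.0), Isl1 (11.9), Gata3 (8.51) and Tbx2 (7.96), with overlap between Gata2 and Mycn, between Insm1 and Isl1, and between Gata3 and Tbx2. By mean level over the 6 libraries Hand2 ranked 259 and Gata3 ranked 6080 of the 12974 tested genes.

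Hand2 and Phox2a carried most of the summed level. The 8 genes summed to 350.4, 299.4 and 334.2 FPKM with si-NC and to 234.4, 267.4 and 280.3 FPKM with si-circCpsf6, so the sums did not overlap (328 ± 26.1 and 260.7 ± 23.7 FPKM, n = 3 each). Hand2 and Phox2a together made up 71.5% to 76.1% of that sum in si-NC and 61.6% to 67.0% in si-circCpsf6. The other 6 factors summed to 86.7 ± 13.1 and 93.9 ± 14.3 FPKM, a difference smaller than the spread within either group.

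Hand2 encodes the helix-loop-helix factor that drives noradrenergic differentiation. It read 179.48, 164.44 and 158.28 FPKM with si-NC replicates 1 to 3 and 116.14, 121.69 and 120.67 FPKM with si-circCpsf6. Every si-circCpsf6 library was below every si-NC library, and the si-circCpsf6 libraries lay closer together than those of si-NC. In bulk RNA, fewer cells with a transcript and less of it per cell cannot be told apart. The ratio of group means was 0.714 and the log2 fold change -0.48 ± 0.13 (SE, n = 3 each; 95% interval -0.77 to -0.19; limma adjusted p = 0.0974). Hand2 lies on chromosome 8 (57320983 to 57324633, plus strand, GRCm38), where the antisense noncoding gene Hand2os1 overlaps it. Hand2os1 read 5.69, 6.41 and 6.08 FPKM with si-NC and 4.33, 3.38 and 4.32 FPKM with si-circCpsf6, also without overlap (log2 fold change -0.50, limma adjusted p = 0.111). The sources used here do not say whether strand was used in counting, so reads from the shared stretch cannot be assigned to either gene with certainty.

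Phox2a encodes a paired-like homeodomain factor that activates the genes of dopamine beta-hydroxylase and tyrosine hydroxylase. Its levels were 77.79, 63.3 and 80.63 FPKM with si-NC and 40.83, 43.09 and 57.79 FPKM with si-circCpsf6. The groups did not overlap, with si-NC replicate 2 and si-circCpsf6 replicate 3 nearest to each other. The ratio of means was 0.639 and the log2 fold change -0.64 ± 0.18 (SE, n = 3 each; 95% interval -1.05 to -0.24; limma adjusted p = 0.105). The gene lies on chromosome 7 (101818313 to 101822726, plus strand, GRCm38), and its end overlaps that of Inppl1 on the opposite strand, which read 20.3 ± 2.12 and 23.2 ± 3.68 FPKM.

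Mycn encodes the helix-loop-helix leucine zipper protein that binds DNA with MAX. It read 18.73, 6.74 and 12.56 FPKM with si-NC and 23.81, 19.38 and 23.82 FPKM with si-circCpsf6. The groups did not overlap, but si-NC replicate 1 lay just below si-circCpsf6 replicate 2, and the si-NC libraries were spread widely. The ratio of means was 1.76 and the log2 fold change 0.87 ± 0.31 (SE, n = 3 each; 95% interval 0.14 to 1.6; limma adjusted p = 0.18). Without si-NC replicate 2 the log2 fold change was 0.51. The gene lies on chromosome 12 (12936093 to 12941914, minus strand, GRCm38) and overlaps no other annotated gene.

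These 3 genes are the ones whose groups did not overlap, so the 250 bases before their start sites are shown, as given by RefSeq for GRCm38.p6 and read on the gene's own strand. Capitals mark E-boxes (CANNTG, the class of site bound by HAND2 and MYCN), GATAA (bound by GATA factors) and TAATTA (a homeodomain core), each searched on both strands. The Hand2 sequence is chr8:57320733-57320982 on the plus strand, the Phox2a sequence chr7:101818063-101818312 on the plus strand and the Mycn sequence chr12:12941837-12942086 on the minus strand. For Mycn the RefSeq start lies inside the gene as GENCODE places it (up to 12941914). The end of the Mycn sequence nearest the start thus falls within the GENCODE gene.
Hand2: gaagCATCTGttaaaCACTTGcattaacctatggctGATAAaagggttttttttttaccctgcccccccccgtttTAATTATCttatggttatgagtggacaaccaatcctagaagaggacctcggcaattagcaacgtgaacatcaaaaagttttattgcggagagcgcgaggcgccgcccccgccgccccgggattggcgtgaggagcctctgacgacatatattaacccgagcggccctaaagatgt
Phox2a: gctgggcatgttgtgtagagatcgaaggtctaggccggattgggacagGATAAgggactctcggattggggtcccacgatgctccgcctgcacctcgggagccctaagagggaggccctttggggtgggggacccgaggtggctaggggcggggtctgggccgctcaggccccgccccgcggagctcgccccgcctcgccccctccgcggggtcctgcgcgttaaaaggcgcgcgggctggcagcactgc
Mycn: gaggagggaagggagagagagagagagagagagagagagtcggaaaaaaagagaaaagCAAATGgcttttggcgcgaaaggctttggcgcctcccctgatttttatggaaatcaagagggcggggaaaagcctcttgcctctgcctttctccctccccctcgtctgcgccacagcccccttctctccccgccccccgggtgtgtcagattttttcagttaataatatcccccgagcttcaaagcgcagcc

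In the Hand2 sequence there were 2 E-boxes, CATCTG and CACTTG, starting 246 and 235 bases before the start site, 2 GATAA matches and 1 TAATTA that overlaps the second of these. The Phox2a sequence held GATAA 202 bases before the start and no E-box, and the Mycn sequence held a single E-box, CAAATG, and neither other motif. Of 32851 promoter windows of this length in the table, 66.2% held an E-box, 22.6% GATAA and 4.8% TAATTA. Base composition also differed: G and C made up 70.4% of the Phox2a sequence but 49.2% of that of Hand2, beside a median of 52.4% for all windows. In all, 6 of the 8 factors had such a sequence in the table, and Insm1 and Tbx2 had none. CACGTG, the E-box form preferred by MYC proteins, and GGTGTGA, a T-box core, were in none of the 7 windows of these 6 genes (6.0% and 3.3% of all windows). A match of letters is a description and shows no binding.

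Insm1 encodes a zinc finger repressor of neuroendocrine precursors. It read 25.16, 16.61 and 23.75 FPKM with si-NC and 8.76, 18.51 and 14.82 FPKM with si-circCpsf6, and the groups overlapped because si-circCpsf6 replicate 2 lay above si-NC replicate 2. The log2 fold change was -0.64 ± 0.27 (SE, n = 3 each; limma adjusted p = 0.245), and -0.36 without si-circCpsf6 replicate 1. Insm1 is a gene of chromosome 2 (146221921 to 146225020, plus strand, GRCm38).

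Isl1 encodes a LIM homeodomain factor of sympathetic and other neurons. It read 16.3, 9.56 and 19.46 FPKM with si-NC and 11.75, 12.35 and 11.48 FPKM with si-circCpsf6. The si-circCpsf6 libraries agreed closely and fell inside the si-NC range. The log2 fold change was -0.27 with a 95% interval from -0.82 to 0.28 (limma adjusted p = 0.564), and it was -0.55 without si-NC replicate 2 and -0.07 when replicate 3 of si-NC was left out.

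Tbx2 encodes a T-box repressor. It read 9.65, 9.42 and 10.26 FPKM with si-NC and 9.72, 7.8 and 6.36 FPKM with si-circCpsf6. The si-NC values were tight, and si-circCpsf6 replicate 1 lay among them while the other si-circCpsf6 libraries lay below. The log2 fold change was -0.28 with a 95% interval from -0.66 to 0.09 (limma adjusted p = 0.379), and -0.15 without si-circCpsf6 replicate 3.

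The GATA factors of the circuit both had higher means with si-circCpsf6. Gata2 read 16.29, 22.67 and 23.01 FPKM with si-NC and 16.6, 35.9 and 35.25 FPKM with si-circCpsf6. Its si-circCpsf6 libraries split, with replicates 2 and 3 above all of si-NC and replicate 1 near the lowest si-NC value. The log2 fold change was 0.42 with a 95% interval from -0.28 to 1.12 (limma adjusted p = 0.48). It was 0.77 without si-circCpsf6 replicate 1, 0.24 without replicate 2 and 0.25 without replicate 3. Gata3, which sustains the survival of sympathetic neurons, read 7.0, 6.63 and 6.29 FPKM with si-NC and 6.75, 8.65 and 10.13 FPKM with si-circCpsf6. Again only si-circCpsf6 replicate 1 lay among the si-NC values. The log2 fold change was 0.30 with a 95% interval from -0.07 to 0.68 (limma adjusted p = 0.346), and 0.18 without si-circCpsf6 replicate 3. Gata3 overlaps 3 other annotated genes, Gm13256, 4930412O13Rik and 9230102O04Rik, each at or below 2.59 FPKM in every library.

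**Figure D2:**
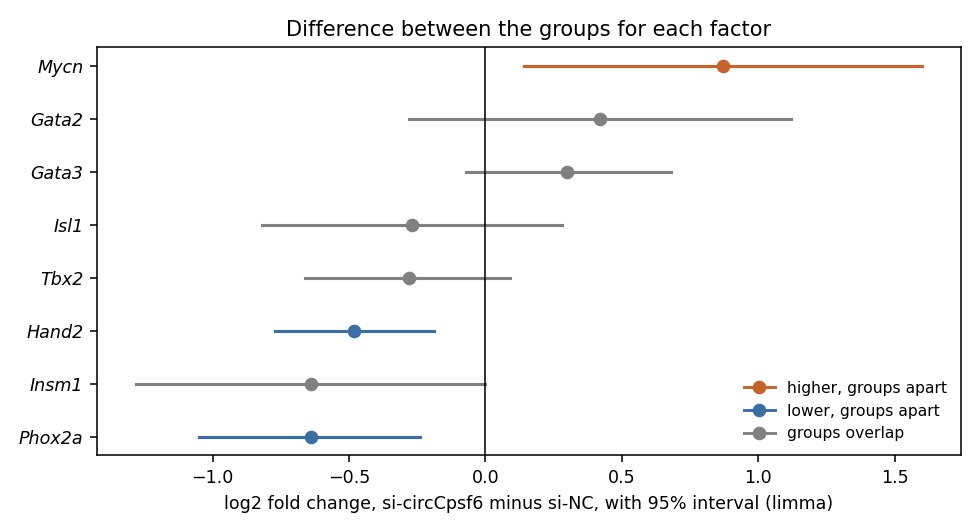
Log2 fold change (si-circCpsf6 minus si-NC, on the log2(FPKM + 1) scale) of each factor with its 95% limma interval, coloured by whether the 3 libraries of a group lay wholly above or below those of the other. Before adjustment over the 12974 genes, the intervals lie off 0 for Hand2, Phox2a and Mycn, end at 0 for Insm1 and cross it for the other 4.

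**Figure D3:**
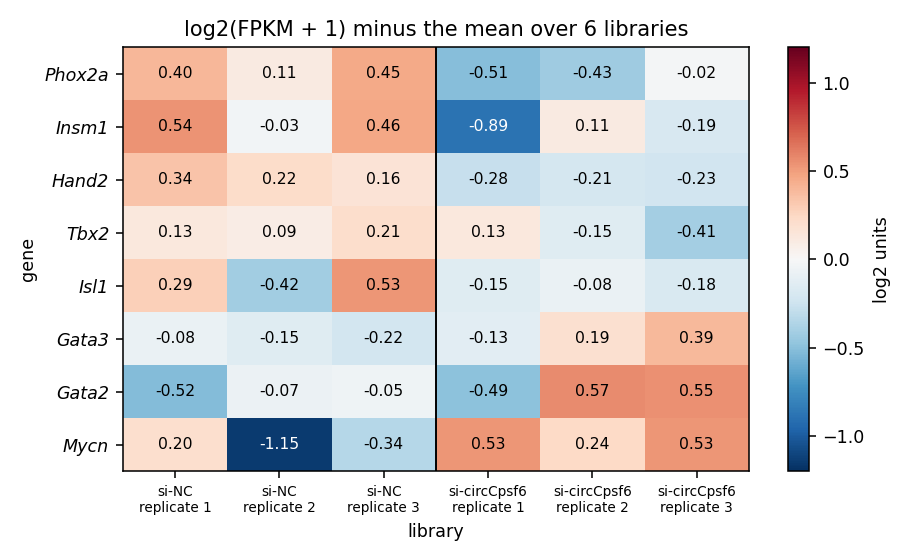
Heat map of log2(FPKM + 1) minus each gene's mean over the 6 libraries, with genes as rows, libraries as columns and colour in log2 units. Mycn in si-NC replicate 2 (-1.15) and Insm1 in si-circCpsf6 replicate 1 (-0.89) are the values farthest from their gene's mean.

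Within each group, the library with the lowest and the highest value of each factor was counted. Among si-NC libraries, replicate 2 held the lowest value for 5 of the 8 factors and the highest for none. Among si-circCpsf6 libraries, replicate 1 held the lowest value for 5 of the 8 and the highest for Tbx2 alone. Some of these lowest values lay close to the next, as for Hand2 with si-circCpsf6 (116.14 beside 120.67 FPKM). No such count was made over all tested genes, so whether these libraries differed as a whole was not tested. The profiles of the factors differed from each other, measured as the root mean square difference between centred log2 values over the 6 libraries. Phox2a and Hand2 were the most alike (0.202), followed by Hand2 and Tbx2 (0.214), while Mycn and Insm1 were the least alike (0.87).

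Ratios between genes of the same library were formed from FPKM + 1, so they still depend on scaling where a gene is low. For 6 ratios an exact two-sided permutation test of 3 against 3 libraries was made, which cannot give a p below 0.1. Mycn was set against Myc, its paralog, which read 56.1 ± 1.19 FPKM with si-NC and 36.7 ± 7.67 FPKM with si-circCpsf6 (limma adjusted p = 0.105). The log2 ratio of Mycn to Myc was -1.52, -2.92 and -2.05 in si-NC and -0.26, -1.14 and -0.63 in si-circCpsf6, so Mycn was closer to Myc in every si-circCpsf6 library than in any si-NC library. The difference of 1.49 had an exact permutation p of 0.1, the smallest possible, and 0.3 after Benjamini-Hochberg adjustment over the 6 ratios. In a sum formed after the values were seen, Mycn and Myc together read 74.24, 64.19 and 67.86 FPKM with si-NC and 52.48, 63.32 and 61.32 FPKM with si-circCpsf6.

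The ratio of Gata3 to Phox2a did not overlap between the groups either. On the log2 scale it was -3.30, -3.08 and -3.49 in si-NC and -2.43, -2.19 and -2.40 in si-circCpsf6, a difference of 0.94 (exact permutation p = 0.1, adjusted 0.3). The ratios of Gata3 to Gata2, Hand2 to Phox2a, Isl1 to Phox2a and Tbx3 to Tbx2 overlapped between the groups, with differences of -0.12, 0.16, 0.37 and 0.31 and exact permutation p from 0.2 to 0.6. Tbx3 was at or below 0.04 FPKM, so its ratio mirrors Tbx2 and the added 1, and with 0.1 added instead the difference was 0.56 (exact permutation p = 0.1). With 1 library left out, the Hand2 to Phox2a difference ran from 0.06 (si-NC replicate 3 left out) to 0.31 (si-circCpsf6 replicate 3 left out). That of Isl1 to Phox2a ran from 0.2 (si-NC replicate 2) to 0.54 (si-circCpsf6 replicate 3), and that of Tbx3 to Tbx2 from 0.17 (si-circCpsf6 replicate 3) to 0.46 (si-circCpsf6 replicate 1).

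**Figure D4:**
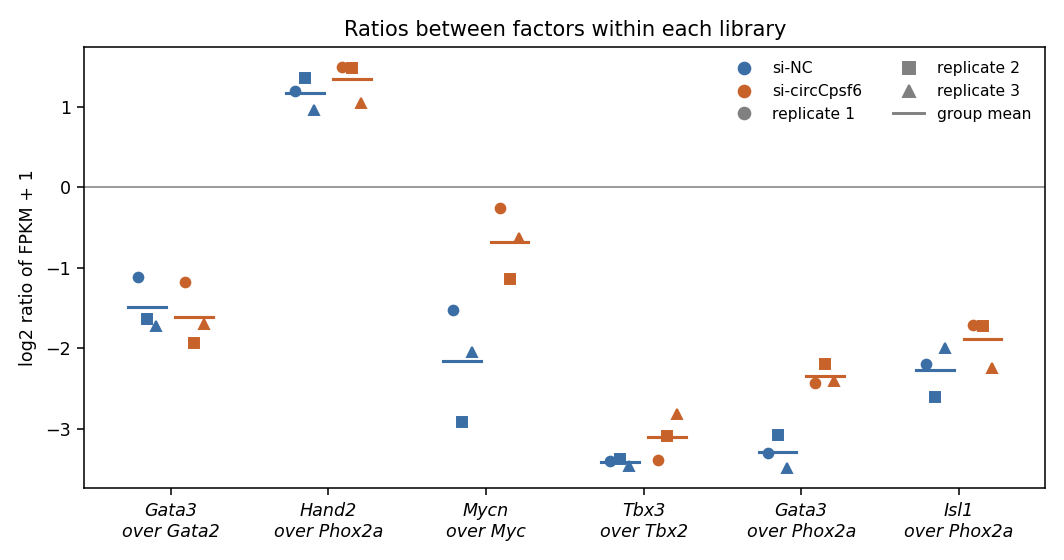
Log2 ratio of FPKM + 1 for 6 pairs of genes in each library, with si-NC in blue, si-circCpsf6 in orange and bars for group means. Mycn over Myc and Gata3 over Phox2a part the groups, and the other 4 ratios overlap.

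The closest profiles outside the circuit were sought among 7924 other genes averaging 5 FPKM or more, by the same root mean square difference over 6 libraries. Nearest to Hand2 were C1qtnf6 (0.051) and Spg20 (0.055), and nearest to Phox2a were Nusap1 (0.051), a spindle protein gene, and Ak1 (0.057), an adenylate kinase gene. Insm1 was nearest to Srm (0.088), the spermidine synthase gene, and Hpf1 (0.1). Isl1 lay nearest to Gm11585 (0.05) and Ppp1r14b (0.104), Tbx2 to Dnajb2 (0.051) and Cacfd1 (0.06), and Gata3 to Arrb2 (0.054) and Stk3 (0.066). Mycn, with Abcc3 (0.128) and Igsf21 (0.141), and Gata2, with Vdac3-ps1 (0.138) and Ppip5k2 (0.144), had no gene as near as the others had. These are descriptions of 6 values per gene, and none of the 8 was a nearest neighbour of another.

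A heptamer, GCAGAAT, was picked in an earlier search of these same data as common in the 3' untranslated regions of genes that were lower with si-circCpsf6. It stood in 11.1% of the 10668 longest annotated 3' untranslated regions of tested genes with at least 50 bases. None of the 8 factors carried it, whether their means were lower or higher. Among regions within 20% of the same length, 3.3% (Phox2a, 581 bases) to 9.7% (Gata2, 1538 bases) carried it, so most genes of such lengths lack it too.

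Other genes of the circuit were described from lists, all chosen with earlier results of these data known. Of 19 other core factors, 10 reached the mean of 1 FPKM for testing, and none passed the limma test: 3 were above 0 and 7 below, with a median log2 fold change of -0.18. At an unadjusted p under 0.05, 1 was higher and 4 were lower, beside 10.2% and 10.1% of all tested genes. Sox4, a SoxC factor of neuroblasts, read 82.0 ± 2.77 FPKM with si-NC and 121.5 ± 9.25 FPKM with si-circCpsf6 (limma adjusted p = 0.0716, and 0.0479 with protein-coding genes alone), and the chromatin organiser Satb1 read 11.5 ± 1.6 and 7.78 ± 0.31 FPKM (limma adjusted p = 0.107).

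Of 15 paralogs of the factors, 6 were tested and none passed, with 1 above 0 and 5 below. The unadjusted p was under 0.05 for 4, all lower, beside 10.1% of all tested genes. Gata1, Gata5 and Tbx5 were listed at 0 in every library. Tbx20, a T-box factor of heart and motor neurons, read 7.67, 10.47 and 8.38 FPKM with si-NC and 2.96, 3.55 and 5.81 FPKM with si-circCpsf6 (log2 fold change -0.98, limma adjusted p = 0.0754). Tbx20 passed with protein-coding genes alone (limma adjusted p = 0.0498) and by the q-values of the authors' deposited table. Gata4, a gene picked with its values known, was at 13.83, 13.78 and 15.07 FPKM with si-NC and 11.26, 11.48 and 10.27 FPKM with si-circCpsf6, so its si-NC libraries were above all of Gata3 and below all of Gata2.

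Among 18 partners and cofactors, 13 were tested and Rcor1 alone passed. It was also the only 1 with an unadjusted p under 0.05, lower as were 10.1% of all tested genes. Rcor1, a scaffold of the histone demethylase and deacetylase complex that INSM1 recruits, fell from 12.7 ± 0.65 to 7.16 ± 0.38 FPKM (log2 fold change -0.75 ± 0.12, SE, n = 3 each; limma adjusted p = 0.0335). That call was lost with no filter on low values (limma adjusted p = 0.0869) and with any 1 of the 6 libraries left out (0.0504 to 0.159). The deacetylase gene Hdac2, the most abundant of the list, read 50.9 ± 4.91 and 52.3 ± 7.90 FPKM (limma adjusted p = 0.935). The E protein gene Tcf4, a dimer partner of HAND2, read 7.86 ± 1.08 and 5.98 ± 0.91 FPKM, and the inhibitor of such dimers Id1 read 5.31 ± 1.88 and 8.37 ± 2.86 FPKM, neither past the test (limma adjusted p = 0.274 and 0.296).

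**Figure D5:**
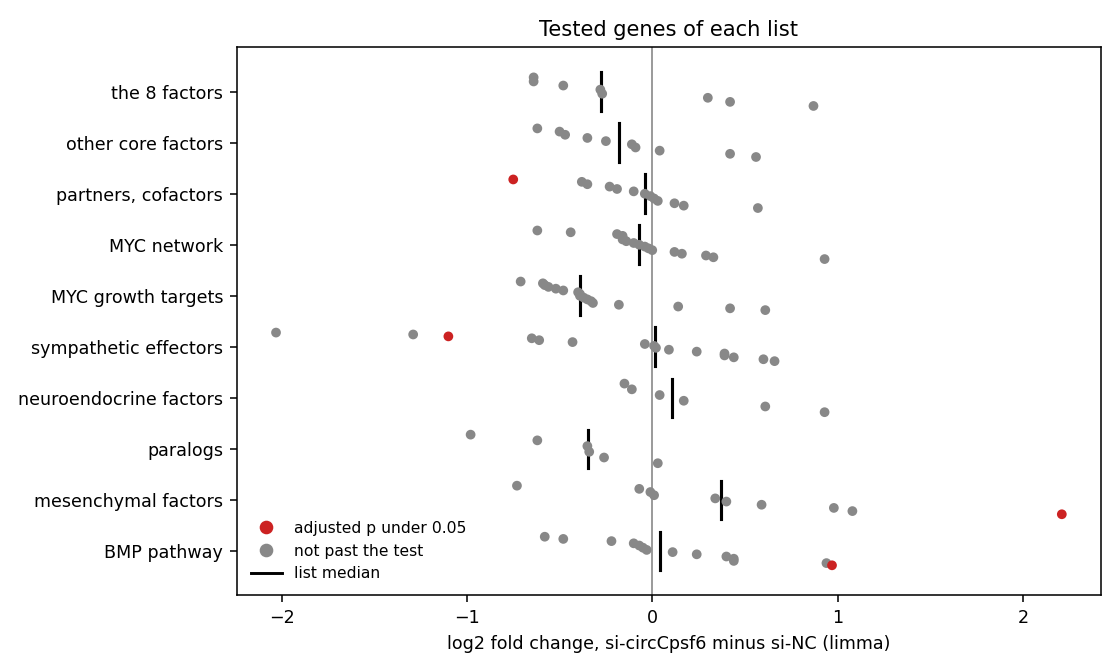
Log2 fold change (si-circCpsf6 minus si-NC) of every tested gene of the 8 factors and 9 related lists (cell type markers are not drawn), with a dot per gene, red where the limma adjusted p was under 0.05, and a bar at the list median. The 8 factors hold no red dot, and Rcor1, Chga, Wwtr1 and Chrd are the red dots of the other lists drawn.

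The list of the MYC, MAX and MXD family and of regulators of MYCN protein was split. Of its 17 tested genes 6 were above 0 and 11 below, and none passed. At an unadjusted p under 0.05, 1 was higher and 1 lower, beside 10.2% and 10.1% of all tested genes. Lin28a, an inhibitor of let-7 maturation in embryonic cells, read 23.87, 14.96 and 19.19 FPKM with si-NC and 33.98, 40.21 and 37.1 FPKM with si-circCpsf6 (log2 fold change 0.93, limma adjusted p = 0.0527). It passed with median centring, quantile normalization, a mean of at least 5 FPKM and protein-coding genes alone (limma adjusted p = 0.0458, 0.0444, 0.0463 and 0.0332), and by the q-values of the authors' deposited table. Huwe1, a ubiquitin ligase for MYC proteins, was at 50.2 ± 2.47 and 44.4 ± 8.19 FPKM (limma adjusted p = 0.541).

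Growth genes known as targets of MYC proteins had lower values in 14 of 17 cases, beside 6846 of all 12974 tested genes (median log2 fold change -0.39, beside -0.021 for all tested genes). None passed the test, and 8 were lower at an unadjusted p under 0.05 and none higher, beside 10.1% lower and 10.2% higher among all tested genes. This list was chosen with earlier results of these data known, so its counts are a description and no test of MYC targets. The ribosome assembly genes Nop2 and Ppan read 27.95 ± 2.12 and 18.7 ± 3.26 FPKM and 23.3 ± 0.70 and 15.6 ± 3.36 FPKM with si-NC and si-circCpsf6 (limma adjusted p = 0.111 and 0.123). Npm1, which encodes the nucleolar protein nucleophosmin, was the most abundant at 361 ± 22.3 and 289.7 ± 44.2 FPKM (limma adjusted p = 0.316).

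Of 21 effector genes of sympathetic neuroblasts, 16 were tested, 9 above 0 and 7 below (median 0.01). At an unadjusted p under 0.05, 2 were higher and 5 lower, beside 10.2% and 10.1% of all tested genes. Chga, the granule protein chromogranin A, was the only gene of the list to pass and fell from 226.09, 226.21 and 248.61 FPKM to 99.15, 95.03 and 135.94 FPKM (log2 fold change -1.10 ± 0.17, SE, n = 3 each; limma adjusted p = 0.0335). Without any 1 library that call was lost (limma adjusted p = 0.0516 to 0.16), as it was with no filter (0.0992). Its relative Chgb read 2073.04, 1073.28 and 1749.2 FPKM with si-NC and 463.2, 199.17 and 616.97 FPKM with si-circCpsf6, without overlap (log2 fold change -2.03, limma adjusted p = 0.065). It passed with protein-coding genes alone (limma adjusted p = 0.04) and by the q-values of the authors' deposited table. Gch1, which makes the cofactor of tyrosine hydroxylase, read 21.9 ± 2.80 and 33.8 ± 5.76 FPKM (limma adjusted p = 0.105). The classical targets of PHOX2A, named after their values were seen, were low and variable: Th read 5.87, 2.53 and 3.31 FPKM with si-NC and 5.08, 2.87 and 3.49 FPKM with si-circCpsf6, and Dbh read 7.63, 2.38 and 6.28 FPKM and 0.98, 0.39 and 4.31 FPKM. Neither passed the test: the log2 fold change was 0.01 for Th and -1.29 for Dbh (limma adjusted p = 0.995 and 0.233). The Dbh groups overlapped, and its unadjusted limma p was 0.0441. Slc6a2, Gfra3 and Hmx1 were listed at 0 in every library.

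Of 15 neuronal and neuroendocrine factors related to INSM1, 6 were tested and none passed. The unadjusted p was under 0.05 for 2, both higher, beside 10.2% of all tested genes. Scrt2, a zinc finger repressor of neurons, read 1.16 ± 0.15 and 3.17 ± 1.01 FPKM, and Rest, the repressor of neuronal genes, 2.09 ± 0.46 and 3.74 ± 1.03 FPKM (limma adjusted p = 0.0646 and 0.159). Scrt2 passed with protein-coding genes alone (limma adjusted p = 0.0399) and by the q-values of the authors' deposited table. Myt1, another zinc finger factor of neurons, was the most abundant of this list at 16.78, 17.88 and 19.42 FPKM with si-NC and 14.21, 23.4 and 25.4 FPKM with si-circCpsf6 (limma adjusted p = 0.701).

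Factors of the mesenchymal neuroblastoma state, which opposes the noradrenergic one, had 10 tested genes of 20, with 7 above 0 and 3 below and a median of 0.37. The unadjusted p was under 0.05 for 4, all higher, beside 10.2% of all tested genes. Wwtr1, which encodes the co-activator TAZ, passed and rose from 1.66, 4.21 and 0.85 FPKM to 10.3, 19.58 and 9.81 FPKM (log2 fold change 2.21 ± 0.40, SE, n = 3 each; limma adjusted p = 0.0465). Its call was lost without any 1 library (limma adjusted p = 0.0531 to 0.16), with a pseudocount of 0.1, with no filter and without the trend (0.0572, 0.141 and 0.0512). The AP-1 related genes Maff and Fosl2 read 7.77 ± 2.60 and 17.4 ± 5.65 FPKM and 5.62 ± 1.43 and 8.81 ± 0.90 FPKM (limma adjusted p = 0.0974 and 0.131), and Maff passed by the q-values of the authors' deposited table. Mef2d, the most abundant of the list, read 16.3 ± 7.17 and 19.4 ± 2.35 FPKM (limma adjusted p = 0.612). Prrx1, a defining factor of that state named after its values were seen, was at or below 0.34 FPKM.

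The BMP pathway, which induces the circuit in precursors, had 14 tested genes of 21, with 7 above and 7 below 0 and a median of 0.04. At an unadjusted p under 0.05, 3 were higher and 2 lower, beside 10.2% and 10.1% of all tested genes. The ligand genes Bmp2 and Bmp7 and the antagonist gene Nog were listed at 0 throughout. Chrd, which encodes a secreted BMP antagonist, passed and rose from 0.74 ± 0.26 to 2.39 ± 0.11 FPKM (log2 fold change 0.97 ± 0.17, SE, n = 3 each; limma adjusted p = 0.0452). This call was lost without any 1 library (limma adjusted p = 0.0802 to 0.176), with a pseudocount of 0.1 and with no filter (0.0617 and 0.137). The activin type 2 receptor gene Acvr2b read 2.23 ± 0.74 and 5.17 ± 1.19 FPKM, the BMP receptor gene Bmpr2 9.38 ± 0.63 and 5.98 ± 1.10 FPKM and Smad4, the shared signal transducer, 24.4 ± 2.56 and 17.2 ± 2.17 FPKM, none past the test (limma adjusted p = 0.0808, 0.0974 and 0.123). Acvr2b passed by the q-values of the authors' deposited table.

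Markers of other cell types were compared for their level beside the factors. Of 7 fibroblast markers, 2 were tested, and Pdgfrb passed, rising from 1.12 ± 0.67 to 4.48 ± 0.35 FPKM (limma adjusted p = 0.0455, but 0.0858 to 0.133 with any 1 library left out, 0.141 with no filter and 0.0787 with a pseudocount of 0.1). The other tested marker, the collagen gene Col1a1, read 4.53, 0.13 and 0.86 FPKM with si-NC and 3.69, 0.16 and 1.13 FPKM with si-circCpsf6 (limma adjusted p = 0.999), and Thy1 was at or below 0.07 FPKM. The fibroblast list summed to 2.06 to 8.99 FPKM with si-NC and 5.31 to 10.4 FPKM with si-circCpsf6, the Schwann list (1 of 7 tested) to 2.07 to 4.29 and 2.70 to 3.81 FPKM, and the endothelial list (1 of 5 tested) to 0.8 to 1.22 and 1.59 to 3.22 FPKM. The blood list summed to 6.62 to 10.4 and 5.22 to 8.72 FPKM, most of it Tal1, a factor that pairs with GATA proteins (7.51 ± 1.61 and 5.09 ± 0.77 FPKM). The list of brain astrocyte and neuron markers, the labelled tissue being brain, had no tested gene of 6 and summed to 0.39 to 0.77 and 0.21 to 1.82 FPKM. The 8 neuroblast markers summed to 1360 to 2380 FPKM with si-NC and 367 to 846 FPKM with si-circCpsf6, a difference made mostly by Chgb. Whether other cells had a part in any value was not tested.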

How the data were processed

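RNA from Neuro2A cells transfected with siRNA was sequenced, and the authors deposited 1 table of FPKM values, genes by 6 libraries, per the file headers. For each gene the authors also deposited a fold change (a ratio), the log2 of it, a p-value and a q-value. The submitters' processing notes list mm8, mm9 and Bowtie 0.12.2, with no role. How FPKM was computed, which test the authors ran and whether strand was used: not given in the sources used here. In the labels, a small RNA kit is named for these mRNA libraries.

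Groups were read from titles. The 12974 genes averaging 1 FPKM or more entered limma 3.58.1 (R 4.3.3). The fit used log2(FPKM + 1), a term for group alone, a trend in the variance and Benjamini-Hochberg adjustment over all genes fitted. Fold changes on this scale understate changes of low genes. Replicate numbers were checked for pairing by correlating same-numbered deviations from group means. The fit was tested on simulated data, and the permutation test was checked on small made-up groups, fully separated or identical, whose p is known. Alternatives were other scalings, pseudocount, filters, no trend, a replicate block, protein-coding genes alone, the deposited q-values and leaving out each library.

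The 8 members and all lists were chosen with earlier results of these data known. Named genes are the 8, up to 4 genes past the test per list (with up to 2 others by smallest p where fewer than 2 passed) and each list's most abundant gene, both genes of each ratio, the 2 nearest profiles per factor and overlapping genes. Others are said to be named after their values were seen, or are cell type markers. Positions and 3' untranslated regions are from GENCODE M21, in which 55144 of the table's identifiers were found, and promoters from RefSeq. Sequence work used Python 3.11.15 with pandas 2.3.3. Some genes of the lists are not reported here by name.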

Additional observations from a re-analysis of the deposited data

How the results depend on the processing

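The 8 factors kept their direction and stayed outside the threshold in all 14 refits and in the deposited q-values. The widest ranges over the refits were those of Mycn (0.51 to 1.18), Gata2 (0.24 to 0.77) and Insm1 (-0.86 to -0.36), while Hand2 stayed within -0.52 to -0.43 and Phox2a within -0.79 to -0.55. The count of the 8 with an unadjusted p under 0.05 was 4 and ranged from 2 (without si-circCpsf6 replicate 3) to 5 (with si-NC replicate 2 left out, or with si-circCpsf6 replicate 1 left out). Over all genes, 219 calls became 13 with no filter, 437 with protein-coding genes alone, 816 by the deposited q-values and between 3 and 87 with 1 library left out. With the replicate number as a block 11 genes were called, none of the 8 among them, and Rcor1, Chga, Chrd and Pdgfrb (limma adjusted p = 0.0702, 0.0615, 0.0736 and 0.0746) were no longer called. Same-numbered libraries correlated in their deviations at 0.103, 0.129 and 0.084 across genes. Each library correlated best with its own number, but si-circCpsf6 replicate 3 only narrowly so (0.084, beside 0.0781 with si-NC replicate 1). This is a weak hint from the data and not from the design. The main fit had a term for group alone and did not take the numbers as pairs. The calls of Rcor1, Chga, Chrd and Pdgfrb depended on that choice. The Gata3 to Gata2 ratio difference of -0.12 turned to 0.07 without si-NC replicate 1 and to 0.04 without si-circCpsf6 replicate 2, and ranged from -0.33 to 0.07 with 1 library left out. Hdac2, with a log2 fold change of 0.03, turned to -0.03 without si-NC replicate 2 and -0.07 without si-circCpsf6 replicate 2 (leave-out range -0.07 to 0.15), and Mef2d turned from 0.34 to -0.08 without si-NC replicate 3 (range -0.08 to 0.55). For the 29 other genes compared, 43 of 429 alternative values lost a call and 14 gained one. Most of the 429 could not lose a call, because only Rcor1, Chga, Wwtr1, Chrd and Pdgfrb were called in the main fit. All 43 losses were theirs, and each of these genes lost its call whenever 1 library was left out. The cause of these changes was not tested. Counts behind the FPKM values are not known, so counting error limits the low genes to an unknown degree.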
